A study of Mus musculus with 6 samples.

Results

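The genes examined were 9 immunoglobulin heavy chain genes, Ighv2-2, Ighv7-1, Ighv11-2, Ighv9-2, Ighv3-3, Ighv13-2, Ighv1-33, Ighv1-67 and Ighe, out of 68 genes in the deposited expression table. They were taken by symbol, as every listed gene beginning with Ighv together with Ighe. The table itself held only genes that the authors had selected on their measured difference between the genotypes compared here, so the members were chosen by that contrast and their differences are given as a description, without a test. RNA-seq was performed on untreated colonic tissue from wild-type (WT) mice and from mice lacking Pum2, an RNA-binding protein of the Pumilio family that binds messenger RNAs and lowers their stability or translation. Each genotype had 3 libraries, numbered in the labels without a statement of whether each number is a separate mouse. Both genotypes were on the FVB background, the knockout line having been bred repeatedly to wild-type FVB mice, and the deletion was present in the whole animal rather than in one cell type. The RNA came from whole tissue, so fewer cells of a type and less RNA per cell cannot be told apart. The libraries WT 1, WT 2 and WT 3 gave Pum2 normalized values of 17.8, 16.1 and 16.5, and Pum2-/- 1, Pum2-/- 2 and Pum2-/- 3 gave 2.94, 2.68 and 1.45. The labels of all 6 libraries therefore matched the targeted gene.

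An antibody heavy chain is encoded by a variable segment that a developing B cell joins to a diversity and a joining segment, followed by a constant region that sets the class. Each B cell clone expresses 1 rearranged heavy chain, so the level of a variable gene in tissue reflects how many antibody-producing cells carry that segment and how much RNA each of them makes. The gut wall is rich in plasma cells, which secrete mainly IgA and devote a large part of their messenger RNA to antibody chains. Ighe encodes the constant region of IgE, the class that binds mast cells and basophils and takes part in allergy and in defence against worms.

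The ends of the annotated transcripts are shown for the 4 variable genes that made up most of the signal, a pair that led in WT and a pair that was higher in Pum2-/-. The sequences are those of GENCODE M21 on GRCm38, the minus strand of chromosome 12, written 5′ to 3′ over the last 294 bases of the second of 2 exons. Capitals mark the TGT codon of the conserved cysteine that precedes the third complementarity-determining region, the point where the variable segment meets the diversity segment. The reference is a C57BL/6J genome and the mice were FVB, so the letters are those of the annotation and were not read from these libraries.
Ighv2-2: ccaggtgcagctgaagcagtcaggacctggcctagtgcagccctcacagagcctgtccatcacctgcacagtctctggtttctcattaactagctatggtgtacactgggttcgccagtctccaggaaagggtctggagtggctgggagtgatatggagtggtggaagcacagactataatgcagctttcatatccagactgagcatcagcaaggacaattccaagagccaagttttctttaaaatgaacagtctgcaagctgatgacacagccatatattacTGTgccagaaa
Ighv7-1: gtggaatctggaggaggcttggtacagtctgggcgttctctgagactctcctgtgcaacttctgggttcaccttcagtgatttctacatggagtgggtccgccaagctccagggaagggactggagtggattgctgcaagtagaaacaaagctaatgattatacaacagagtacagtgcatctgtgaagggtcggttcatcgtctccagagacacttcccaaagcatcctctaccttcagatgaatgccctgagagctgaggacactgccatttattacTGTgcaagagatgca
Ighv9-2: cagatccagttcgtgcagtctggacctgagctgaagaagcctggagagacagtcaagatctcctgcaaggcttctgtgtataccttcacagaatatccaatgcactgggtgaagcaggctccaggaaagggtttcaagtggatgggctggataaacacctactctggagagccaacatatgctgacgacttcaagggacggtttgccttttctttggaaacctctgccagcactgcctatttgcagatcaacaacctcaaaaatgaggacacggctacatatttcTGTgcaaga
Ighv3-3: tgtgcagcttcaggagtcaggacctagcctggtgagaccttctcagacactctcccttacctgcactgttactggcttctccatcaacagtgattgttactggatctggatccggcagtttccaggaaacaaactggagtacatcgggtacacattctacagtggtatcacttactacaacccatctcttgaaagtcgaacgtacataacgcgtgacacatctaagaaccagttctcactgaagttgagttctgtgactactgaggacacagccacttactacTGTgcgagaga

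The Ighv2-2 stretch lies at chr12:113588267-113588560, Ighv7-1 at chr12:113896408-113896701, Ighv9-2 at chr12:114109001-114109294 and Ighv3-3 at chr12:114196439-114196732. Aligned over the last 290 bases of each transcript, the 8 variable members shared between 52.9% and 86.9% of bases in their 28 pairs, with a median of 57.8%. The closest pair was Ighv1-33 and Ighv1-67. Several members had a nearer relative among the annotated genes that were not members. Ighv2-2 matched Ighv2-4 at 97.9%, and 55.4% of its 50-base windows also occurred in the transcript of another gene. For Ighv11-2 the nearest gene was Ighv11-1 at 98.6%, with 38.6% of windows shared. For Ighv1-33 it was Ighv1-26 at 95.9%, with 28.9% of windows shared, and for Ighv9-2 it was Ighv9-1 at 95.9%, with 23.5% of windows shared. Reads of these 4 genes could have been divided among relatives, depending on a counting method that the sources used here do not give. By contrast, Ighv7-1, Ighv3-3, Ighv13-2, Ighv1-67 and Ighe shared 0 such windows with any other annotated transcript.

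Ighv1-33 is annotated as a pseudogene, while the other variable members are annotated as variable genes. Against its closest relative its transcript is 1 base short after base 168, counted from the 5′ end of the transcript. Both windows are shown because the gap shifts the reading frame, and the capital marks the base of Ighv1-26 that the alignment left without a partner.
Ighv1-33: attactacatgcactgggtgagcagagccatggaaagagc
Ighv1-26: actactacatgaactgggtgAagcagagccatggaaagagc

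Read from its first ATG, the annotated Ighv1-33 transcript met 3 stop codons, the first at codon 89. In 6 of the other variable members the frame from the first ATG ran open through the cysteine codon. The exception was Ighv1-67, whose annotated transcript begins with the codon ATC, and whose frame through the cysteine codon held 0 stops. The octamer ATGCAAAT, a letter run known from immunoglobulin promoters, was searched in the transcripts on both strands, as ATGCAAAT or ATTTGCAT. It occurred in 1 of 183 annotated heavy chain variable transcripts, or 0.546%, and that one was Ighv11-2, where it forms the first 8 bases. The first 30 bases of that transcript are given with the octamer in capitals.
Ighv11-2: ATGCAAATagggcctctttctactcatgaa

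The letters TGTANATA, which Pumilio proteins are known to bind in RNA, were searched on the sense strand and found in 0 of the 9 members and in 2 of the 183 annotated variable transcripts, or 1.09%. The annotated variable transcripts stop at the segment end, so only those letters in that window were examined.

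All 9 members lie in the heavy chain locus on chromosome 12, over a span of 2335 kb that holds 161 annotated variable genes, 61 of them pseudogenes. Pum2 is on the same chromosome, at a distance of 104.5 to 106.9 Mb from the members, and 11 of the 68 listed genes are on it. Ighe, with 6 exons, lies at chr12:113269260-113273248. The variable members follow at 315 kb for Ighv2-2, 623 kb for Ighv7-1, 775 kb for Ighv11-2, 836 kb for Ighv9-2, 923 kb for Ighv3-3, 1085 kb for Ighv13-2, 1570 kb for Ighv1-33 and 2331 kb for Ighv1-67. The 3 members that were higher in Pum2-/- were neighbours among the listed genes. They fell within a stretch of 249 kb at chr12:114109001-114358218 that holds 19 annotated variable genes, and lower members lay on both sides of it. The rest of those variable genes are not listed, so their direction was not seen here. The position of each difference is shown in the plot of fold change against distance from Ighe.

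**Figure D1:**
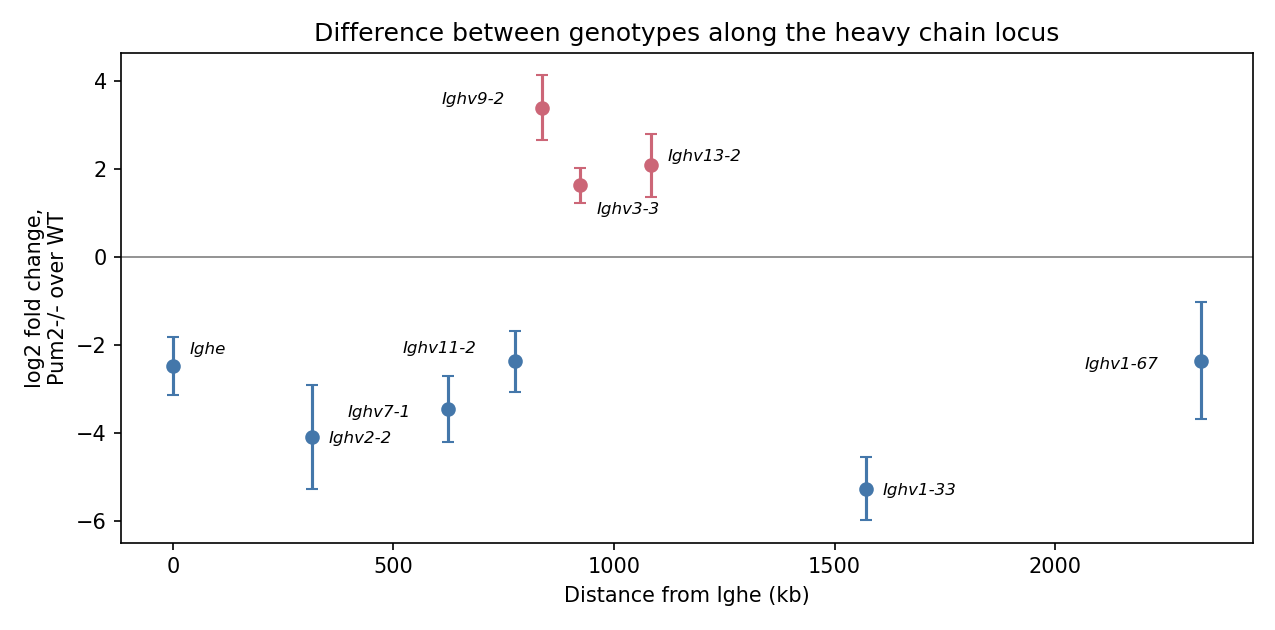
Log2 fold change of Pum2-/- over WT on the log2(value + 1) scale, with its standard error (3 libraries per genotype), against the distance from Ighe in kb. Only listed genes are shown, and the unlisted genes between them have no value here. The 3 higher genes, Ighv9-2, Ighv3-3 and Ighv13-2, lie between 836 and 1085 kb, with lower listed genes on either side. These directions held under each scaling tried, but the scalings were computed from the selected genes themselves.

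Of the 9 members, 8 showed no overlap between genotypes, meaning that every library of one genotype exceeded every library of the other. Over all 68 listed genes the share without overlap was 86.8%, and since the table lists only selected genes nothing is read from the members' count. In direction, 3 members were above WT without overlap, against 44.1% of all listed genes, and 5 were below, against 42.6%. The median log2 fold change, taken as the difference of group means of log2(value + 1), was -2.36 over the members and -0.15 over all listed genes. The median size without sign was 2.47 for the members and 2.40 for all listed genes.

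Ighv2-2 was the most abundant member in WT colon. Its normalized value was 1739, 5267 and 1293 in the WT libraries and 189.7, 362 and 34.1 in the Pum2-/- libraries. The lowest WT library was 3.57 times the highest Pum2-/- library, and the log2 fold change was -4.08 (SE 1.18, n = 3 per genotype). Within each genotype its libraries differed widely, by 4.07 times in WT and by 10.6 times in Pum2-/-.

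Ighv7-1 had the next highest level in WT. Its values were 1547, 1094 and 673 in WT and 206, 40.7 and 102 in Pum2-/-. The genotypes were apart, the lowest WT library being 3.26 times the highest Pum2-/- library, with a log2 fold change of -3.44 (SE 0.76). Ighv7-1 shared 0 windows with other genes in the reference annotation, unlike Ighv2-2.

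The pseudogene Ighv1-33 gave the largest log2 fold change among the members. Its values were 69.3, 39.4 and 81.9 in WT and 2.95, 0 and 0.0626 in Pum2-/-. Its log2 fold change was -5.26 (SE 0.72), and the lowest WT library was 13.3 times the highest Pum2-/- library. Ighv11-2 was low in both genotypes, at 7.49, 5.05 and 10.2 in WT and at 2.95, 0 and 0.0626 in Pum2-/-, with a log2 fold change of -2.36 (SE 0.70). The Pum2-/- values of these 2 genes were the same in all 3 libraries.

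Ighv1-67 was the only member whose genotypes overlapped. Its values were 6.45, 38.3 and 0.757 in WT and 0.979, 0.892 and 0.0426 in Pum2-/-, and WT 3 lay below a pair of Pum2-/- libraries. The log2 fold change of -2.35 (SE 1.33) went to -1.20 without WT 2 and to -3.44 without WT 3, so the size was set by single WT libraries.

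Ighe, the IgE constant region, was a low signal in every library. Its values were 13.1, 12.1 and 8.21 in WT and 3.93, 0.847 and 0.0996 in Pum2-/-. The WT libraries lay within 1.60 times of each other and above all Pum2-/- libraries, with a log2 fold change of -2.47 (SE 0.66). Of 12 genes of the IgE response, which include the IgE receptor chains, the cytokines Il4 and Il13 and mast cell proteases, Ighe alone was among the listed genes, and the other members of that list were not analysed here.

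In the opposite direction, Ighv9-2 was 14.9, 13.1 and 49.97 in WT and 411, 231 and 139.5 in Pum2-/-. The lowest Pum2-/- library was 2.79 times the highest WT library, and the log2 fold change was 3.40 (SE 0.74). Ighv3-3 had a high level in both genotypes, with 138, 70.6 and 79.9 in WT and 357, 200.3 and 335 in Pum2-/-. Its genotypes were closer, the lowest Pum2-/- library being 1.45 times the highest WT library, and its log2 fold change of 1.64 (SE 0.39) was the smallest among the members. Ighv13-2 was 1.81, 7.06 and 7.41 in WT and 34.2, 33.1 and 11.2 in Pum2-/-. Its lowest Pum2-/- library was 1.51 times the highest WT library, and the log2 fold change was 2.09 (SE 0.72).

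**Figure D2:**
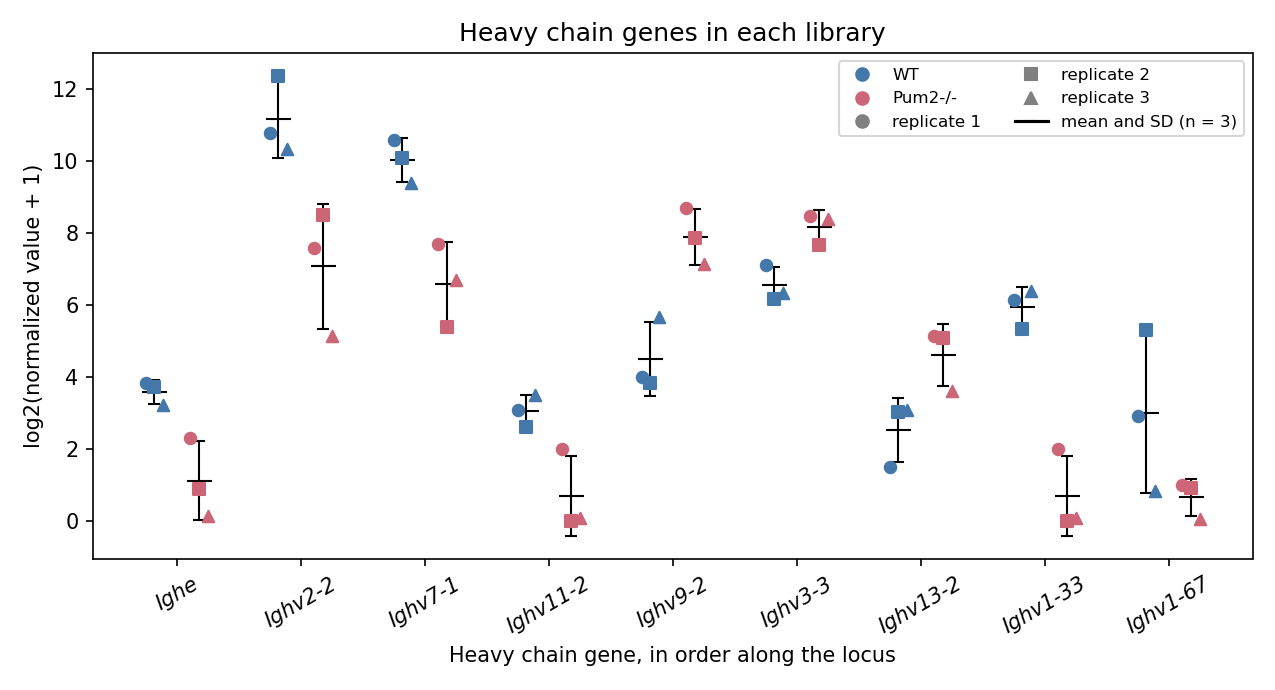
Log2(normalized value + 1) of each heavy chain gene in each library, with blue for WT, red for Pum2-/-, one marker shape per replicate number, and the mean and SD of 3 libraries in black. Only Ighv1-67 shows overlapping genotypes, and the values of Ighv2-2 in Pum2-/- and of Ighv1-67 in WT spread the most.

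Dividing each library by its median over the listed genes moved the median fold change of all listed genes by -0.91 on the log2 scale, and dividing by the sum of the listed immunoglobulin genes moved it by 2.58. The direction of each of the 9 members held under both. Neither is an independent normalization, since both were computed from genes selected on this contrast. The listed-gene median itself was 14.9, 12.6 and 20.8 in WT and 29.8, 33.4 and 33.7 in Pum2-/-. Under the first scaling Ighv3-3 was 0.61 and Ighv13-2 was 1.19, and both then overlapped between genotypes, while Ighv1-67 no longer did, so that 7 members were without overlap, beside 76.5% of all listed genes. Under the second, Ighv9-2 was 6.18, Ighv3-3 was 4.48 and Ighv13-2 was 4.72, while Ighv7-1 was -0.60, Ighe was -0.74 and Ighv2-2 was -1.24, and 4 members were without overlap, beside 60.3% of all listed genes.

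Per kilobase of annotated transcript, the mean WT level was highest for Ighv2-2, at 7859, followed by Ighv7-1 at 3042, Ighv3-3 at 275 and Ighv1-33 at 182. Ighv9-2 at 74.1, Ighv1-67 at 43.2, Ighv11-2 at 16.4, Ighv13-2 at 15.1 and Ighe at 7.64 followed. Neighbours in this order overlapped in range over the libraries, as for Ighv2-2 (3674 to 14962) and Ighv7-1 (1853 to 4261), except that Ighv7-1 lay above Ighv3-3 (202 to 394) in all libraries. Compared within each WT library, Ighv2-2 was nevertheless always above Ighv7-1, and Ighv1-33 always above Ighv9-2. In Pum2-/- the order was Ighv3-3 at 850, Ighv9-2 at 742, Ighv2-2 at 555, Ighv7-1 at 321, Ighv13-2 at 72.9, Ighv1-33 at 2.87, Ighv11-2 at 2.18, Ighv1-67 at 1.82 and Ighe at 1.11. Neighbours among its first 4 genes overlapped in range, as did those among its last 4, while Ighv7-1 lay above Ighv13-2 and Ighv13-2 above Ighv1-33 in all libraries.

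The listed heavy chain variable genes thus differed in composition between genotypes, as the plot of their shares shows. Because they were selected on their difference between these libraries, a shift in shares was built in, and it is given only as a description. Ighv2-2 and Ighv7-1 together made up 93.3%, 97.3% and 89.5% of the summed value of the 8 variable genes in the WT libraries (93.4% ± 3.91, SD, n = 3). In Pum2-/- they made up 32.9%, 46.4% and 21.9% (33.7% ± 12.3, SD, n = 3). Conversely, Ighv3-3 and Ighv9-2 made up 4.33%, 1.28% and 5.91% in WT and 63.7%, 49.7% and 76.3% in Pum2-/-. The shares do not depend on how a library was scaled. Ighv2-2 and Ighv7-1 were first and next in all 3 WT libraries, whereas the leading gene was a different one in each Pum2-/- library, Ighv9-2 in Pum2-/- 1, Ighv2-2 in Pum2-/- 2 and Ighv3-3 in Pum2-/- 3. The sum covers listed genes alone, and variable genes outside the table were not analysed here.

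**Figure D3:**
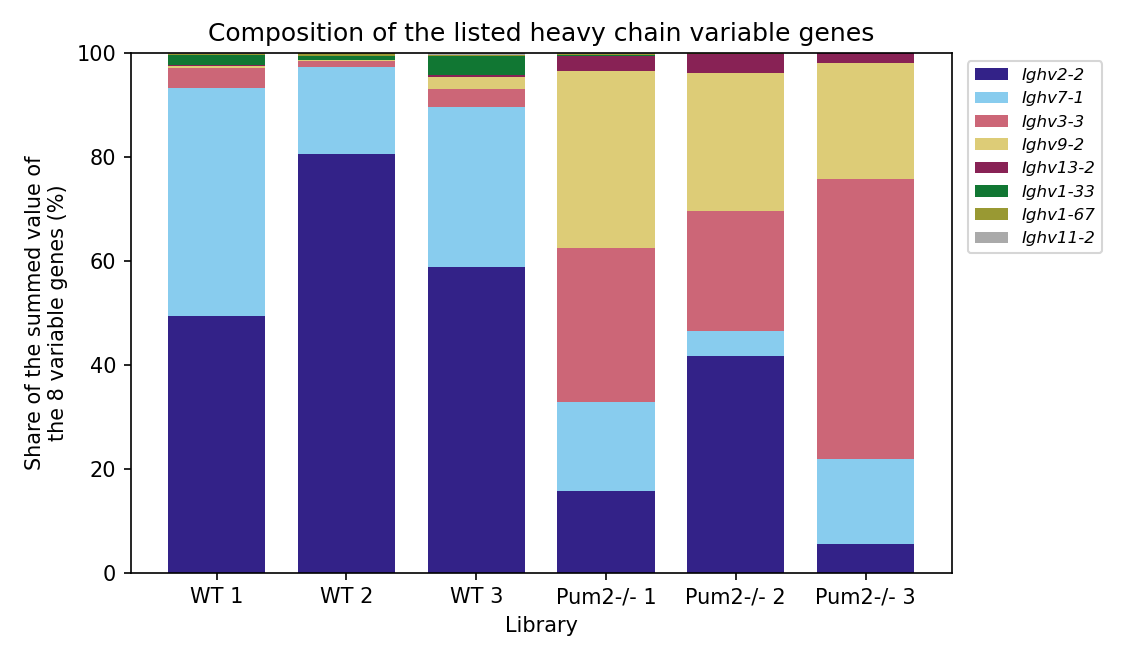
Share in percent of the summed normalized value of the 8 listed heavy chain variable genes in each library, stacked by gene. Ighv2-2 and Ighv7-1 fill at least 89.5% of each WT bar and at most 46.4% of each Pum2-/- bar, where Ighv3-3 and Ighv9-2 take most of the rest.

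The summed value of the 8 variable genes was 3524, 6534 and 2196 in WT and 1205, 868 and 622 in Pum2-/-. On the log2 scale the sum was lower in Pum2-/- by a fold change of -2.09 (SE 0.53) as deposited, but was higher, at 0.76, once each library was divided by its listed immunoglobulin sum, to which light chain genes contribute. The 8 listed light chain genes, which encode the partner of the heavy chain, summed to 7601, 14832 and 4665 in WT and to 1451, 521 and 541 in Pum2-/- (log2 fold change -3.44, SE 0.68). The ratio of the heavy to the light chain sum was 0.464, 0.441 and 0.471 in WT and 0.830, 1.67 and 1.15 in Pum2-/-. The sums are unlike, since the heavy chain sum held variable genes only and the light chain sum also held the constant gene Iglc1. Iglc1 gave 2976, 7201 and 2165 to the WT sums and 123, 146 and 139 to the Pum2-/- sums. Both sums were made of genes selected on this contrast, so the ratio is only a description. The ratio was close to constant among the WT libraries although the heavy chain sums ran from 2196 to 6534, and it was higher and more spread in Pum2-/-. The evenness in WT rests partly on Igkv1-132, which gave 896 to the light chain sum of WT 1 but was 4.06 in WT 2 and 4.35 in WT 3.

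Like the heavy chain genes, the light chain genes differed in both directions, with 3 higher and 5 lower and 6 of 8 without overlap. They ranged from Iglc1, at a log2 fold change of -4.72, to Igkv1-99, at 3.88. Iglc1 and Iglv1 are the constant and variable genes of the same lambda light chain and lie on chromosome 16, and the other 6 light chain genes are kappa genes on chromosome 6. Iglc1 was 2976, 7201 and 2165 in WT and 123, 146 and 139 in Pum2-/-. In WT, Ighv2-2 held a narrow ratio to Iglc1, of 0.584, 0.731 and 0.597. In Pum2-/- the ratio was 1.54, 2.48 and 0.246 and thus spread over a wider range. The ratio of Ighv7-1 to Iglc1 was less even in WT, at 0.520, 0.152 and 0.311. The plot of the lambda genes beside Ighv2-2 and Ighv7-1 shows WT 2 highest for Ighv2-2, Iglv1 and Iglc1 but not for Ighv7-1.

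**Figure D4:**
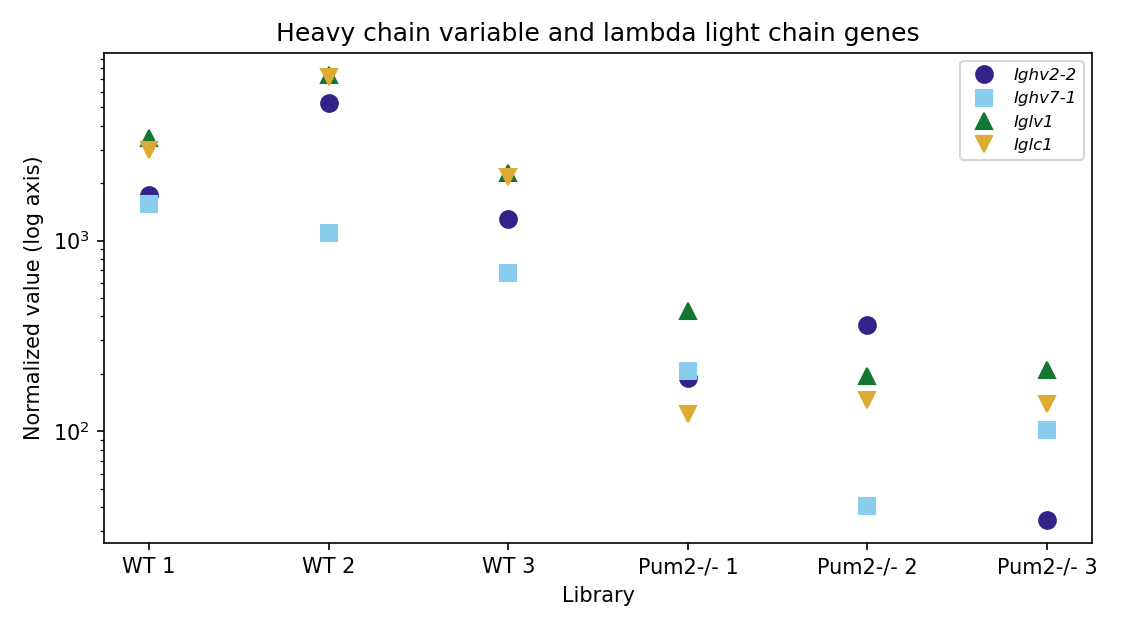
Normalized value on a log axis of Ighv2-2, Ighv7-1 and the lambda light chain genes Iglv1 and Iglc1 in each of the 6 libraries. Ighv2-2 has the same order as Iglv1 and Iglc1 across the WT libraries, with WT 2 highest in each. In Pum2-/- the lambda genes themselves differ in order. Ighv2-2 and Iglc1 are highest in Pum2-/- 2 and Iglv1 in Pum2-/- 1, and Iglc1 varies little, from 123 to 146.

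The spread within a genotype was described by the SD of log2(value + 1). Its median over the members was 0.60 in WT and 1.10 in Pum2-/-, beside 0.61 and 0.73 over all listed genes. For light chain genes it was 1.11 in WT and 0.74 in Pum2-/-. Among the Pum2-/- libraries, Pum2-/- 1 held the highest value for 8 of 9 members, Pum2-/- 2 for 1 and Pum2-/- 3 for 0. Those 8 included members that were lower and members that were higher than WT. Pum2-/- 1 was also the highest Pum2-/- library for listed genes that were not members, such as Pum2 and Iglv1, whereas for Ccl8 it was Pum2-/- 3. The share over all listed genes was not computed, so the count is not read as particular to the members. In WT the highest values fell in WT 1 for 3 members, in WT 2 for 2 and in WT 3 for 4.

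The library Pum2-/- 3 stood apart at the bottom of the scale. With values below 1e-06 counted as 0, which applied to 3 genes listed above 0, it had 15 listed genes above 0 and below 0.5, from 0.0218 to 0.278, and its next value was 1.27. Among these 15 were 4 members, Ighv1-67, Ighv11-2, Ighv1-33 and Ighe. Across the 15 genes these values ranked in the same order as the mean of Pum2-/- 1 and Pum2-/- 2, with a Pearson correlation of log2 values of 0.999, and the ratio to that mean was between 0.0326 and 0.0478. Ighv11-2, Ighv1-33 and Cyp2f2 had the same value in each Pum2-/- library, as did Ighe and Gal3st2c. In Pum2-/- 1 these 4 members were at 0.979 for Ighv1-67, 2.95 for Ighv11-2 and Ighv1-33 and 3.93 for Ighe. With Igkv1-132 at 1.96, these values were nearly evenly spaced. The differences of these 4 members thus rest on Pum2-/- values at the bottom of the scale. The way these low values were made is not given in the sources used here, and its part in the differences was not tested. Without Pum2-/- 3 the log2 fold changes were -1.99 for Ighe, -2.05 for Ighv1-67, -2.06 for Ighv11-2 and -4.96 for Ighv1-33, against -2.47, -2.35, -2.36 and -5.26 with it. None of the other 5 members had a value below 0.5 in that library, and Ighv2-2, at 34.1 there, went from -4.08 to -3.12 without it.

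**Figure D5:**
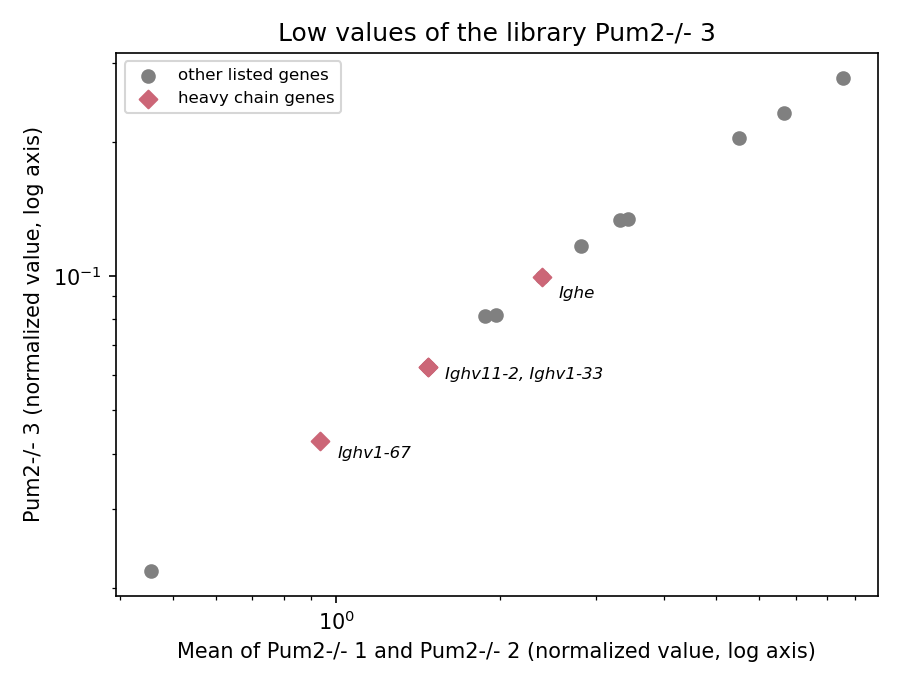
Normalized value in Pum2-/- 3 against the mean of Pum2-/- 1 and Pum2-/- 2 for the 15 listed genes between 1e-06 and 0.5 in Pum2-/- 3, both on log axes, with heavy chain genes as red diamonds. The points lie close to a single line, and Ighv11-2 and Ighv1-33 share a point.

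Other cell types could change alongside antibody genes, so markers were looked up in the table. Of 23 genes of B and plasma cells, which include Cd79a, Jchain, Mzb1 and the constant region genes of the other heavy chain classes, 0 were listed, and these were not analysed here. Colon tissue itself could not be checked, since 0 of 4 epithelial markers were listed. Likewise 0 of 4 macrophage markers and 0 of 4 mast cell markers were listed. Of 7 T and NK cell markers, Gzma, Gzmb and Nkg7 were listed, and their summed value ran from 25.1 to 83.4 in WT and from 152 to 291 in Pum2-/-. Of 3 Paneth cell markers, Defa30 was listed, from 13.0 to 48.4 in WT and from 0 to 6.89 in Pum2-/-. The part of these cell types in the differences of the heavy chain genes was not tested.

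For each member, the listed gene with the most similar pattern over the 6 libraries was sought by the Pearson correlation of log2(value + 1), which the separation of the genotypes itself raises. Ighe was most like Clca4a, at 0.996, and Ighv7-1 was most like the kappa gene Igkv9-124, at 0.970. The 2 most abundant genes in Pum2-/- were most like interferon- or chemokine-related genes. Ighv9-2 was closest to the GTPase gene Tgtp2 at 0.985 and Ighv3-3 to the chemokine gene Ccl8 at 0.985. Ighv13-2 was closest to Tgtp1 at 0.875, Ighv11-2 to Nxpe5 at 0.959, Ighv2-2 to Rnase2a at 0.944 and Ighv1-67 to Scgb1b3 at 0.898. Ighv1-33 was closest to Pum2 itself, at 0.975. With each genotype's mean removed, the correlations of these same pairs ran from 0.524 for Ighv13-2 to 0.982 for Ighe. The correlation of Ighv1-33 with Pum2 was then 0.554.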

How the data were processed

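Total RNA of untreated mouse colon was sequenced in 3 WT and 3 Pum2-/- libraries, extracted with Trizol and prepared with a SMARTER mRNA kit. The authors deposited 1 normalized value per gene and library, treated here as a signal that is never negative. Its normalization, aligner, counting method, filters and test are not given in the sources used here. The table has 69 rows and 68 genes after a repeated identifier was counted once. Columns holding the authors' own comparison (a log2 fold change with raw and adjusted p-values) were left out. Library depth is unknown, as only part of each library is listed, so neither counting error nor detection limits were estimated.

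Fold changes were differences of group means of log2(value + 1), with a pseudocount of 1 and the standard error from both SDs. Since the contrast had chosen the genes, no test was run. Members and gene lists were chosen with earlier results of these data known. The named genes were all members, Pum2, the extreme light chain genes by fold change, the most similar listed gene for each member, and listed markers. A marker gene is not reported here and was left out of its list. Other genes with shared values or lambda chains were named after their values were seen. Identifiers were matched to GENCODE M21 on GRCm38, with 68 of 68 found, and transcripts were aligned with Biopython 1.88. Other work was done in Python 3.11.15 (pandas 2.3.3 and numpy 2.4.6 for tables, matplotlib 3.10.9 for plots, scipy 1.17.1 for rank correlation), and the fold change, standard error and overlap calculations were tested on simulated data. Other settings tried were the ratio of untransformed group means, 0.1 as the pseudocount, scaling by the median of 54 listed genes with no value at 0 or by the immunoglobulin sum, leaving out members with a mean under 5, a replicate block, and leaving out each library.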

Additional observations from a re-analysis of the deposited data

How the results depend on the processing

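The direction of each member held under each alternative run for it. Leaving out means under 5 removed Ighv11-2, itself without overlap, and so left 7 such members. The number of members without overlap was 8 as deposited and 4 after division by the listed immunoglobulin sum. Under that division, all listed genes without overlap went from 59 to 41 of 68. The members' count was 8 to 9 when each library was left out in turn. Removing a library can only keep or raise this count, so nothing is read from that range. The number higher in Pum2-/- stayed at 3. The summed heavy chain value (log2 fold change -2.09) was -3.13 after median scaling, turned to 0.76 after division by the immunoglobulin sum, and ran from -2.47 to -1.68 with libraries left out. The summed light chain value (-3.44) was -4.47, -0.59 and -3.92 to -3.002 in the same order. The cause was not tested, but the immunoglobulin sum contains the values it divides, and the median was taken over genes selected on this contrast. With a pseudocount of 0.1, low genes moved most, Ighv1-33 to -7.37, Ighv11-2 to -4.33, Ighv1-67 to -3.49 and Ighe to -3.59, and the log2 ratio of group means put Ighv1-67 at -4.57. With libraries left out, Ighv2-2 ran from -4.80 without Pum2-/- 2 to -3.12 without Pum2-/- 3, Ighv7-1 from -3.996 without Pum2-/- 1 to -2.84 without Pum2-/- 2, Ighe from -3.07 to -1.99, Ighv1-33 from -5.90 to -4.91, Ighv11-2 from -3.01 to -2.02, Ighv13-2 from 1.57 to 2.59, Ighv3-3 from 1.45 to 1.93 and Ighv9-2 from 3.001 to 3.99. In the replicate block, 9 of 9 members and 63 of 68 listed genes kept 1 sign in all 3 same-numbered pairs. Deviations of same-numbered libraries correlated at 0.106, 0.0415 and 0.265 over the listed genes, and those of different-numbered libraries at -0.230 to 0.125. These weak values over selected genes cannot settle whether the numbers pair the libraries, and the labels do not say. Whole reads could not be recovered, so count tests were not run. The recombination signal and promoter octamer searches were not run, and the octamer was sought in transcripts instead. Precision is limited by 3 libraries per genotype and by unknown depth.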
